A study of Mus musculus with 8 samples.

Results

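The genes of the NF-kappaB pathway were examined in splenic B cells that lack the transcription factor IRF4. The set was a list of 36 genes chosen by name: transcription factor subunits, their inhibitors, kinases, adaptor proteins, ubiquitin-editing proteins, and target genes and ligands. Each gene was read from 1 probe set, the brightest over all 8 arrays among the probe sets annotated to that gene alone. Of the 36 genes, 31 had such a probe set and all 31 passed the filter on dim signals, among 11798 genes tested in all. Nfkb1, Chuk, Traf3, Irak4 and Bcl2a1d had no single-gene probe set in the annotation used and were not analysed here.

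The series holds 8 arrays of mature B cells from the spleens of C57BL/6 mice aged 12 weeks. Of these, 4 came from irf4-/- mice, called Irf4 null below, and 4 from irf4+/+ littermates, called wild type. Non-B cells had been removed magnetically, no stimulus or treatment of the cells is named, and the labels give both groups the same protocol. The labels name no promoter or Cre that would restrict the deletion to B cells, and they give neither the sex of the mice nor the number of mice behind the arrays. The p-values therefore measure only how far these samples scatter, and part of that scatter may be technical.

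NF-kappaB factors are dimers of Rel-family proteins that wait in the cytoplasm, bound by IkappaB inhibitors. In the canonical route, receptors such as Toll-like receptors and the B cell receptor activate the IKK complex, which marks IkappaB for destruction. In the non-canonical route, receptors such as CD40 and the BAFF receptor stabilise the kinase NIK, which leads to processing of the p100 protein. In B cells the pathway is known for survival, activation and the induction of its own inhibitors, and the Irf4 gene is itself a known target of c-Rel.

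On the 8 arrays the RNA of the targeted gene was lower in every Irf4 null sample, with Irf4 signals of 1720 to 2341 in wild type and 244 to 315 in Irf4 null (log2 fold change -2.76 ± 0.12, limma, adjusted p = 4.6e-06). The B cell label was checked with 7 markers, Cd79a, Cd79b, Ms4a1, Cd22, Pax5, Blnk and Fcrla, all of which passed the filter on dim signals. Their summed signal was 73905 to 88608 in wild type and 74606 to 82900 in Irf4 null, and Fcrla was the 1 of the 7 that fell (-0.81, adjusted p = 0.016). Xist, the RNA of the inactive X chromosome in females, was high (17119 to 19652) on wild-type arrays 1, 3 and 4 and Irf4 null array 1, and low (49.2 to 94.8) on the other arrays, which are number 2 of wild type and numbers 2, 3 and 4 of Irf4 null. Eif2s3y, a gene of the Y chromosome, read 3.31 to 25.4 on the Xist-high arrays and 3216 to 4530 on the Xist-low arrays. By both genes the Xist-high arrays read as female and the Xist-low arrays as male. Genotype is therefore partly confounded with sex in every comparison here. Summed markers of neutrophils, monocytes and macrophages, T cells, NK cells and dendritic cells were lower on the Xist-high arrays without overlap, while those of erythroid cells and platelets overlapped between these arrays. Of 52 other-cell markers 46 had a probe set, 3 of them dim (Cd163, Cd4 and Hba-a1), and their summed signal was 25482 to 38079 on the Xist-high arrays and 63120 to 124864 on the Xist-low arrays. By genotype this pooled sum, to which neutrophil markers contribute 5638 to 76265, overlapped, at 25482 to 104684 in wild type and 38079 to 124864 in Irf4 null. The platelet sum did not overlap, at 2227 to 3134 in wild type and 3444 to 5571 in Irf4 null, with an unadjusted p below 0.05 (limma) for 5 of 5 platelet markers. All 6 tested NK cell markers were higher in Irf4 null (median log2 fold change 1.07), 5 of them with an unadjusted p below 0.05. All 6 tested T cell markers were also higher (median 1.24), 3 with such a p. The 9 tested neutrophil markers were higher too (median 1.37), none with such a p. The monocyte and macrophage markers were mixed. Of 9 tested, 6 were higher and 3 lower: C1qa (-0.51), C1qb (-0.24) and Vcam1 (-0.10). Their median was 0.42, or -0.29 with a term for the Xist-high arrays in the fit. Of all other-cell markers tested, 3 passed an adjusted p below 0.05, each higher in Irf4 null. These were Spic of the monocyte and macrophage list (1.84 ± 0.27, limma, adjusted p = 0.0040), Prf1 of NK cells (1.33 ± 0.24, adjusted p = 0.0122) and Ppbp of platelets (0.81 ± 0.19, adjusted p = 0.0415).

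Among the 31 measured genes of the set, Traf1 was the 1 called different in Irf4 null B cells, and the fitted differences of the others were small. Of the 31 genes, 1 was called higher and none lower in Irf4 null at an adjusted p below 0.05, and 30 did not pass (limma; 4 of the 31 had an unadjusted p below 0.05, against 20.4% of all tested genes). Of the 11798 tested genes 2.67% rose, 1.7% fell and 4.37% did either, so the share of the 31 genes was near the background. With a term for the Xist-high arrays in the fit, Traf1 was again the 1 call among the 31, and of all tested genes 1.97% rose, 1.1% fell and 3.08% did either. The median log2 fold change of the 31 genes was -0.012, with 14 above 0 and 17 below, and that of all tested genes was 0.025. The 30 genes that did not pass lay between -0.21 (Rel) and 0.26 (Nfkbiz), with standard errors of 0.061 to 0.20. Not passing does not show that a gene was unchanged. Before adjustment for the number of tests, the fold intervals of Nfkbiz (1.05 to 1.37), Birc2 (1.01 to 1.33) and Irak1 (1.02 to 1.24) lay above the wild-type level.

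**Figure D1:**
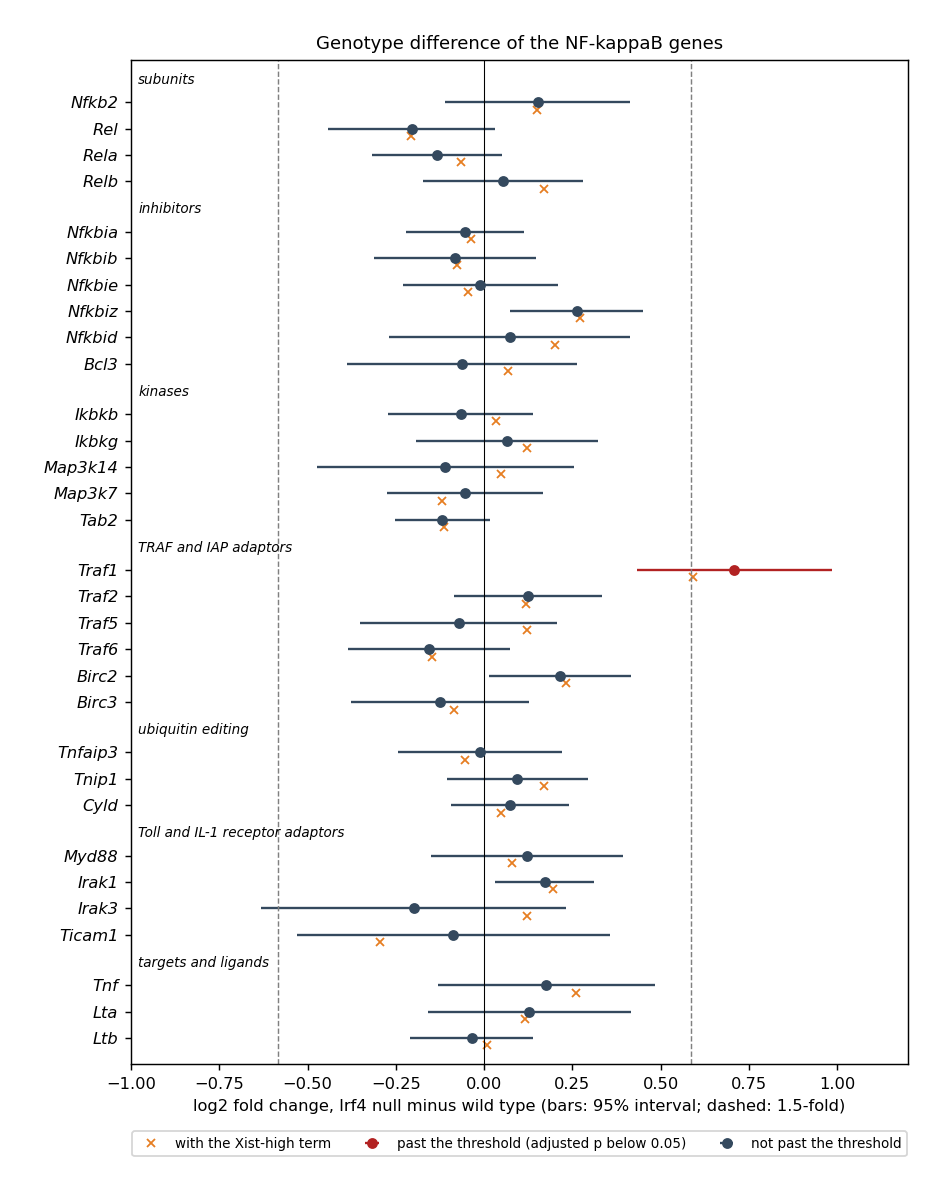
Log2 fold change of each measured NF-kappaB gene, Irf4 null minus wild type (4 arrays each), with 95% intervals from the fit as bars, the fold change with the Xist-high term as crosses, and dashed lines at 1.5-fold. Traf1 alone is past the threshold, at 0.71, and the intervals of all others except Irak3 lie between the dashed lines.

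The intervals limit how large a missed change could be. For 29 of the 30 genes the 95% interval of the fold lay inside 1.5-fold in both directions. The exception was Irak3, whose interval ran from 0.646 to 1.17 times the wild-type level. These limits hold for the brightest probe set of each gene in the fit without the Xist-high term. Intervals of some dimmer probe sets reached past 1.5-fold, such as Map3k7 (0.660 to 0.997) and Traf6 (0.509 to 1.07). Of all tested genes 61.9% had an interval inside 1.5-fold. The limit of 1.5-fold was chosen after the values were seen. In RNA of whole preparations, fewer cells of a type and less RNA per cell cannot be told apart, so these intervals describe the preparation and not a single cell.

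Traf1, an adaptor that binds TRAF2 and TNF receptor family complexes and is a known NF-kappaB target, was the gene called higher. In wild type its brighter probe set gave signals of 751, 959, 909 and 698, and in Irf4 null 1233, 1406, 1223 and 1584. Every Irf4 null signal was above every wild-type signal. The means were 829 ± 124 (SD, n = 4) and 1362 ± 171 (SD, n = 4), and the log2 fold change was 0.71 ± 0.13 (SE, from limma; adjusted p = 0.0117), or 1.63-fold with a 95% interval of 1.35 to 1.98. The second Traf1 probe set gave 404, 555, 391 and 409 in wild type, against 843, 801, 833 and 823 in Irf4 null. It also separated the groups, rose by 0.90 ± 0.12 (limma, adjusted p = 0.0021), and varied less among the Irf4 null arrays (SD 18.3) than among the wild-type arrays (SD 77.2).

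Some markers of other cells were higher on the same arrays as Traf1. Platelet markers summed to 2416, 3134, 2227 and 2959 in wild type, against 5571, 3444, 4331 and 3689 in Irf4 null, and the Spic, Prf1 and Ppbp signals also separated the genotypes. Of the 9 tested monocyte and macrophage markers 6 were higher in Irf4 null, Spic among them, and C1qa, C1qb and Vcam1 were lower. The pooled other-cell sum overlapped between the genotypes. Neutrophil markers made up 54612 of its 104684 on wild-type array 2, so the pooled sum says little about cell types with smaller sums. The part of other cells in the Traf1 difference was not tested. With the Xist-high term in the fit, Traf1 was still higher by 0.59 (adjusted p = 0.0375). Within the Xist-high arrays alone (3 wild type and 1 Irf4 null) the difference was 0.65 (adjusted p = 0.142), and within the Xist-low arrays (1 wild type, 3 Irf4 null) it was 0.53 (adjusted p = 0.323). Each of these fits has 1 array in an arm, which is assumed to vary like the others, so neither says much about Traf1. Leaving out any single array kept the call, with adjusted p between 0.0035 and 0.045.

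**Figure D2:**
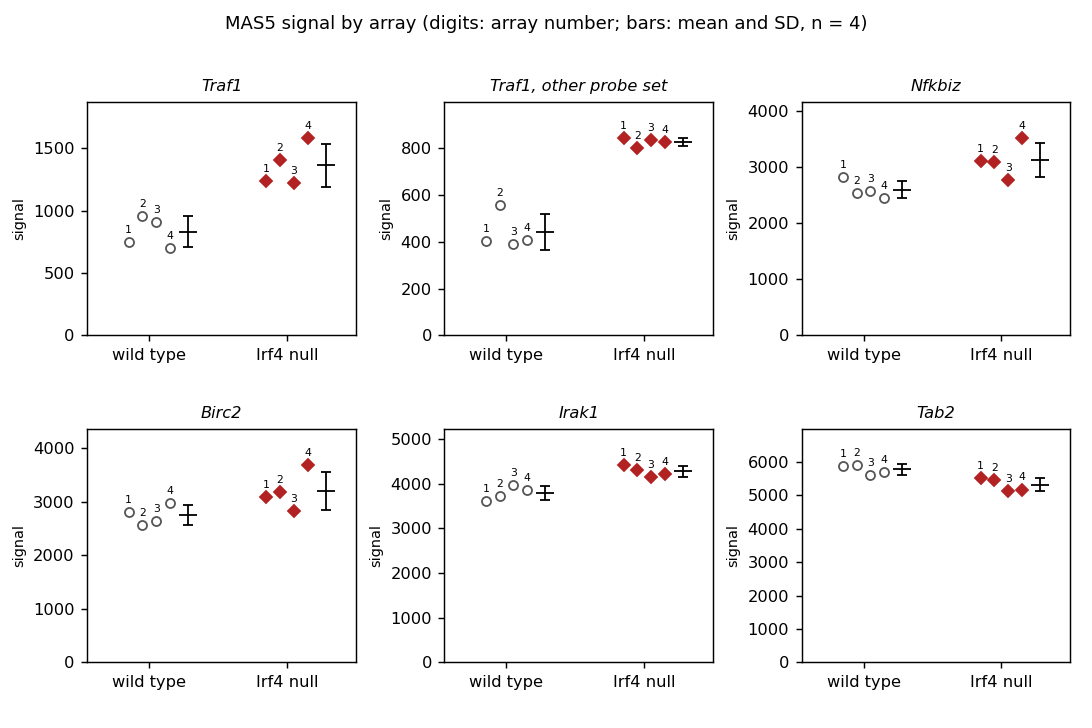
MAS5 signal on each array for Traf1 (both probe sets), Nfkbiz, Birc2, Irak1 and Tab2; digits give the array number and bars the mean and SD of 4 arrays. Both Traf1 probe sets, Irak1 and Tab2 show no overlap between the genotypes, while Nfkbiz and Birc2 overlap.

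The promoter sequences are shown because many of these genes are regulated by the pathway they belong to. The RefSeq table of promoters (build GRCm38.p6) matched 32 of the 36 genes, all except Nfkb1, Relb, Nfkbiz and Ikbkb, and the 250 bases before each start site were searched on both strands for the kappaB consensus, the motif that NF-kappaB dimers bind. A match was found for 11 of the 32 genes (34.4%), against 4.46% of all 27025 genes with a window. They were Cyld, Ltb, Map3k7, Nfkb2, Nfkbia, Nfkbid, Nfkbie, Rel, Tnfaip3, Tnip1 and Traf3, several of them inhibitors of the pathway. The set was chosen by name and includes genes known to be regulated by the pathway, so its high share could be foreseen and tests nothing. A gene counted if any of its windows matched, and the 32 genes had 44 windows, against 32851 windows for the 27025 genes. The window of Traf1, the gene called higher, held no match, which says only that these letters are not in this window. Below, the windows of Traf1 (chr2:34961773-34962022, minus strand), Nfkbia (chr12:55492648-55492897, minus strand), Rel (chr11:23770970-23771219, minus strand), Tnfaip3 (chr10:19015411-19015660, minus strand) and Nfkb2 (chr19:46304487-46304736, plus strand) are written 5′ to 3′ on the gene's strand and end at the base before the start site. Capitals mark the kappaB matches, on either strand, and overlapping matches are merged into 1 run of capitals.
Traf1: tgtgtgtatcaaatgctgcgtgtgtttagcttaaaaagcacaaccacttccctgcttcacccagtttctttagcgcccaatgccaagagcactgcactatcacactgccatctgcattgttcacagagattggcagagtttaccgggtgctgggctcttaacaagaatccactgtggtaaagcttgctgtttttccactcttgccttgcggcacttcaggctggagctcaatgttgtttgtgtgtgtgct
Nfkbia: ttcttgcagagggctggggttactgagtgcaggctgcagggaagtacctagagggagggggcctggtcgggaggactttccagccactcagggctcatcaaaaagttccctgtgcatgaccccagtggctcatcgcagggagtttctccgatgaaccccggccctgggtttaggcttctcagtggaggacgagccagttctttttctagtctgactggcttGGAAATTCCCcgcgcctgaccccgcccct
Rel: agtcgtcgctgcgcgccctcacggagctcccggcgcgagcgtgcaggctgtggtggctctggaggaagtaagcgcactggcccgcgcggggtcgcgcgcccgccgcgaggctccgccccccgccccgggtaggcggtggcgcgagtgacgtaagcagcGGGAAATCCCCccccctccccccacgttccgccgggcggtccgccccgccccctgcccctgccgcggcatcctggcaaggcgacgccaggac
Tnfaip3: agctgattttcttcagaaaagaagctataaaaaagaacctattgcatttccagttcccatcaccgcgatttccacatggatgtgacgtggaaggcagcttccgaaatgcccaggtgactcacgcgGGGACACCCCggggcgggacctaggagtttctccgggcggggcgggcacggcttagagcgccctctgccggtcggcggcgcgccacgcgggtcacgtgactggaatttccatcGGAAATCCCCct
Nfkb2: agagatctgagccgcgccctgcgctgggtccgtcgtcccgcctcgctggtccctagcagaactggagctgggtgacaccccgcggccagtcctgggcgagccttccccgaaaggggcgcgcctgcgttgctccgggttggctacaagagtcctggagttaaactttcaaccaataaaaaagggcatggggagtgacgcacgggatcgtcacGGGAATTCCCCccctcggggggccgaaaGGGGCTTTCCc

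The kappaB match of Nfkbia lies 29 to 20 bases before the start and reads GGGAATTTCC on the opposite strand, and the first of the Nfkb2 windows holds 3, of which 1 ends 2 bases before the start. Among the 28 tested genes of the set with a window, the 10 with a kappaB match had log2 fold changes of -0.21 to 0.15 and none was called. The 18 without a match ranged from -0.20 to 0.71, with Traf1 called. Over all tested genes, 4.26% of the 517 with a match and 4.33% of the 9072 without were called, which are close to each other.

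Motifs known to bind IRF proteins were also searched, on both strands and with overlapping matches counted. The composite motif of ETS factors and IRF4 was found in the window of 1 gene of the 32, Birc2, as GGAAAAGAAA on the opposite strand 26 to 17 bases before 1 of its start sites, and in 2.68% of all genes. The interferon response element was found in the window of Myd88 only, as GAAAGCGAAA 40 to 31 bases before the start, and in 3.46% of all genes. Birc2 and Myd88 were not called.

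The transcription factor subunits did not pass. Rel encodes c-Rel, the subunit most tied to activated B cells, and read 607, 729, 749 and 747 in wild type, against 628, 559, 685 and 573 in Irf4 null. Only wild-type array 1 fell among the Irf4 null values. The log2 fold change was -0.21 ± 0.11 (limma, adjusted p = 0.37) and stayed below 0 in all 21 alternative fits. Rela, the p65 subunit, read 2977, 2627, 2905 and 2825 in wild type, against 2767, 2645, 2679 and 2252 in Irf4 null, at -0.13 ± 0.083 (adjusted p = 0.463). The groups overlapped, with the lowest Rela value on Irf4 null array 4.

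The subunits of the non-canonical route overlapped between genotypes too. Nfkb2, which encodes p100, ranged from 610 to 793 in wild type and from 663 to 881 in Irf4 null, at 0.15 ± 0.12 (adjusted p = 0.583). Relb, the partner of processed p100, read 949 to 1031 in wild type and 937 to 991 on Irf4 null arrays 2, 3 and 4. On Irf4 null array 1 it read 1259. The log2 fold change was 0.053 ± 0.10 (adjusted p = 0.85), and without that array it was -0.041.

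Of the inhibitors, Nfkbiz had the smallest p. It encodes IkappaB-zeta, a nuclear IkappaB protein that acts as a co-activator of some targets, and read 2811, 2536, 2575 and 2454 in wild type, against 3105, 3085, 2773 and 3522 in Irf4 null. Irf4 null array 3 lay below wild-type array 1, and the other values were apart. The difference was 0.26 ± 0.085 (limma, unadjusted p = 0.0109, adjusted p = 0.134), with a 95% interval of 1.05 to 1.37 times the wild-type level. A second Nfkbiz probe set gave 1310, 1321, 1479 and 1438 for wild type and 1649, 1588, 1825 and 1671 for Irf4 null, with no overlap, at 0.28 ± 0.080 (adjusted p = 0.0941). The third was at -0.068 (adjusted p = 0.869), so the probe sets of Nfkbiz did not all point the same way.

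The classical IkappaB genes were nearly level. Nfkbia, the NF-kappaB-induced inhibitor IkappaB-alpha, read 17403 to 21307 in wild type and 16691 to 19141 in Irf4 null, at -0.054 ± 0.076 (adjusted p = 0.784). Its 95% interval ran from 0.858 to 1.08 times the wild-type level, and its 4 other probe sets lay between -0.11 and 0.055. Nfkbib, which encodes IkappaB-beta, read 645, 669, 568 and 689 in wild type, against 636, 552, 669 and 569 in Irf4 null, at -0.082 ± 0.10 (adjusted p = 0.753). Nfkbie, which encodes IkappaB-epsilon, was at -0.010 ± 0.10 (adjusted p = 0.974), with means of 5897 ± 652 (SD) and 5852 ± 635 (SD). The nuclear IkappaB genes Nfkbid (0.072 ± 0.15) and Bcl3 (-0.063 ± 0.15) had wider spreads, from 1469 to 2366 and from 746 to 1189 over all 8 arrays, and neither passed (adjusted p = 0.868 and 0.881).

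Among the kinases and their partners none passed. Tab2, the adaptor that links ubiquitin chains to the kinase TAK1, read 5887, 5919, 5595 and 5696 in wild type, against 5509, 5467, 5134 and 5172 in Irf4 null. Every Irf4 null value was below every wild-type value, yet the difference was only -0.12 ± 0.061 (limma, adjusted p = 0.363). The second Tab2 probe set gave 3433, 3656, 3597 and 3630 for wild type and 2856, 2934, 3361 and 2638 for Irf4 null, again with no overlap, at -0.28 ± 0.081 (adjusted p = 0.0906). Tab2 was 1 of 3 genes of the set whose groups did not overlap, with Traf1 and Irak1, against 12.8% of all tested genes (7.13% higher, 5.71% lower).

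The IKK subunits and upstream kinases overlapped between groups. Ikbkb, the catalytic subunit IKK2, read 5579, 4844, 5564 and 5602 in wild type, against 5705, 4913, 5637 and 4431 in Irf4 null, at -0.066 ± 0.093 (adjusted p = 0.781). Its low values came from array 2 of each genotype and from Irf4 null array 4. The other Ikbkb probe sets, all dimmer, had larger differences of the same sign, from -0.26 to -0.15. Their groups overlapped and none passed. Ikbkg, the regulatory subunit NEMO, was at 0.065 ± 0.12 (adjusted p = 0.835) and ranged from 801 to 1130 over the 8 arrays. Map3k14, the kinase NIK of the non-canonical route, was at -0.11 ± 0.17 (adjusted p = 0.798), with means of 584 ± 110 (SD) and 540.0 ± 101 (SD). Map3k7, the kinase TAK1, was at -0.054 ± 0.10 (adjusted p = 0.841) on its brightest probe set. A dimmer Map3k7 probe set separated the groups, with 193 to 235 in wild type and 153 to 188 in Irf4 null, and did not pass (-0.30 ± 0.13, adjusted p = 0.284).

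Beside Traf1, the other TRAF and IAP adaptors did not pass. Birc2, the ubiquitin ligase cIAP1 that works with TRAF2 to keep NIK low, read 2820, 2576, 2643 and 2979 in wild type, against 3097, 3195, 2834 and 3699 in Irf4 null. Irf4 null array 3 lay below wild-type array 4, and the difference was 0.21 ± 0.091 (limma, unadjusted p = 0.039, adjusted p = 0.258). Birc3, the related ligase cIAP2, ranged from 9440 to 11304 in wild type and from 7493 to 11293 in Irf4 null, at -0.12 ± 0.11 (adjusted p = 0.646).

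Traf2, the direct partner of TRAF1, had means of 873 ± 80.2 (SD) and 951 ± 57.2 (SD) and a log2 fold change of 0.12 ± 0.095 (adjusted p = 0.569). Traf6, the ubiquitin ligase of the Toll-like receptor and CD40 routes, was at -0.16 ± 0.10 (adjusted p = 0.50), with 476 to 556 in wild type and 414 to 486 in Irf4 null. Traf5, an adaptor of TNF receptor family members, was at -0.072 ± 0.13 (adjusted p = 0.832). A dimmer Traf5 probe set had the opposite sign and did not pass (0.31 ± 0.21, limma, adjusted p = 0.505). Traf1 therefore differed from wild type while the measured genes of its TRAF relatives did not pass, and the difference between Traf1 and these relatives was not tested.

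The ubiquitin-editing genes, which switch the pathway off, were nearly level. Tnip1 (ABIN-1) read 1867, 1526, 1674 and 1747 in wild type, against 1906, 1811, 1943 and 1617 in Irf4 null, at 0.094 ± 0.090 (limma, adjusted p = 0.662). Cyld, a deubiquitinase, read 2803, 3226, 3375 and 3091 in wild type, against 3220, 3475, 3267 and 3173 in Irf4 null, at 0.074 ± 0.076 (adjusted p = 0.686). Tnfaip3 encodes A20, the best-known feedback inhibitor of the pathway. It was at -0.012 ± 0.10 (adjusted p = 0.972), with means of 1614 ± 207 (SD) and 1596 ± 146 (SD) and an interval from 0.845 to 1.16 times the wild-type level.

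Of the Toll-like and IL-1 receptor adaptors, Irak1 had the smallest p. It encodes a kinase recruited by MYD88 and read 3606, 3730, 3974 and 3858 in wild type, against 4424, 4311, 4142 and 4210 in Irf4 null. The groups did not overlap, and the difference was 0.17 ± 0.064 (limma, unadjusted p = 0.0211, adjusted p = 0.189), or 1.13-fold. Its 3 other probe sets were at 0.013 to 0.096, with overlapping groups. Myd88, the adaptor shared by most Toll-like receptors, was at 0.12 ± 0.12 (adjusted p = 0.686), with high values of 1564 on wild-type array 2 and of 1560 and 1687 on Irf4 null arrays 1 and 4. Ticam1 encodes TRIF, the adaptor of TLR3 and TLR4. It was at -0.087 ± 0.20 (adjusted p = 0.88), and its highest values, 452 and 391.6, both came from array 2 of its genotype.

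Irak3, which encodes the inhibitory kinase IRAK-M, separated the arrays by Xist and not by genotype on its brightest probe set. It read 1247, 696, 991 and 1192 in wild type, against 1194, 869, 761 and 739 in Irf4 null, at -0.20 ± 0.20 between genotypes (limma, adjusted p = 0.669). On the 4 Xist-high arrays it read 991 to 1247, and on the 4 Xist-low arrays 696 to 869. In the fit with genotype and the Xist-high term, Irak3 was higher on the Xist-high arrays by 0.64 ± 0.12 (adjusted p = 0.017), the only gene of the 31 called for this term, against 3.18% of all tested genes. With the term its genotype difference was 0.12 (adjusted p = 0.723), above 0 instead of below. A dimmer Irak3 probe set overlapped slightly, at 197 to 288 on the Xist-high and 133 to 198 on the Xist-low arrays. It was not called for the term (0.46 ± 0.19, limma, adjusted p = 0.336), and its genotype difference stayed below 0 with the term (-0.11).

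Traf5 and Rela also separated the Xist-high from the Xist-low arrays, at 2214 to 2307 against 1590 to 2006 for Traf5 and 2767 to 2977 against 2252 to 2679 for Rela. Neither passed for the term (0.38 ± 0.091, adjusted p = 0.0619, and 0.14 ± 0.089, adjusted p = 0.583). A dimmer Traf5 probe set overlapped between these arrays, at 77.2 to 162 against 81.3 to 126. In all, 3 of the 31 genes did not overlap between these arrays, against 12.2% of all tested genes. The arrays with low Irak3, Traf5 and Rela were those with high other-cell markers, and their B cell marker sums were also lower, at 73905 to 76949 against 80254 to 88608. The part of other cells, or of the sex of the mice, in these values was not tested.

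**Figure D3:**
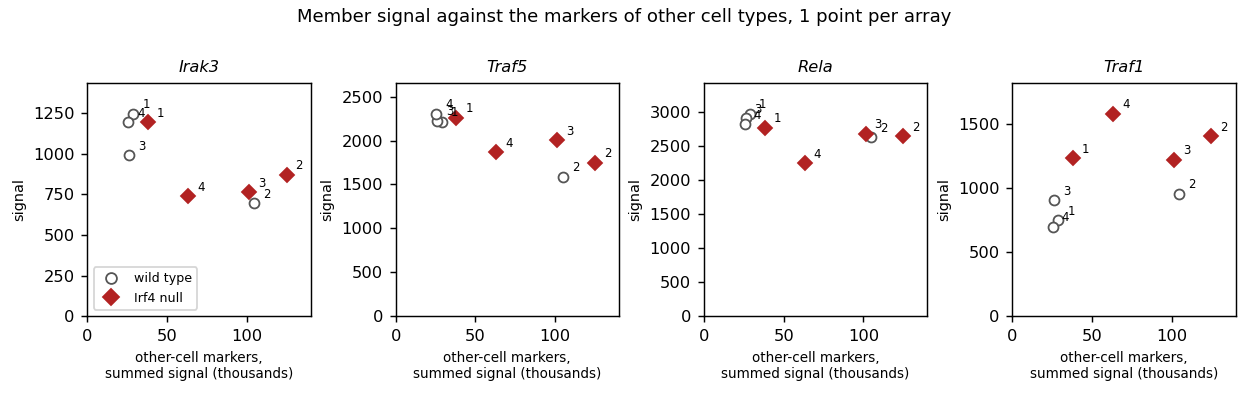
Signal of Irak3, Traf5, Rela and Traf1 on each array (vertical axis) against the summed signal of the other-cell markers on that array divided by 1000 (horizontal axis); digits give the array number. Irak3, Traf5 and Rela are highest on the 4 arrays with low marker sums, and Traf1 is highest on the 4 Irf4 null arrays, whose pooled marker sums range from 38079 to 124864.

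Among the targets and ligands none passed. Tnf, the inflammatory cytokine, read 260, 268, 268 and 276 in wild type, against 366, 281, 343 and 244 in Irf4 null. The wild-type values were close together (SD 6.51) and the Irf4 null values spread to both sides of them (SD 56.0), at 0.18 ± 0.14 (limma, adjusted p = 0.586). Lta, which encodes lymphotoxin alpha, read 500.0, 542, 663 and 527 in wild type, against 578, 506, 703 and 663 in Irf4 null, at 0.13 ± 0.13 (adjusted p = 0.683). Ltb, whose product anchors lymphotoxin at the B cell surface and helps to organise the spleen, was at -0.036 ± 0.080 (adjusted p = 0.873). Ltb read 15485 to 19227 in wild type and 15505 to 17867 in Irf4 null, and its interval ran from 0.864 to 1.10 times the wild-type level.

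**Figure D4:**
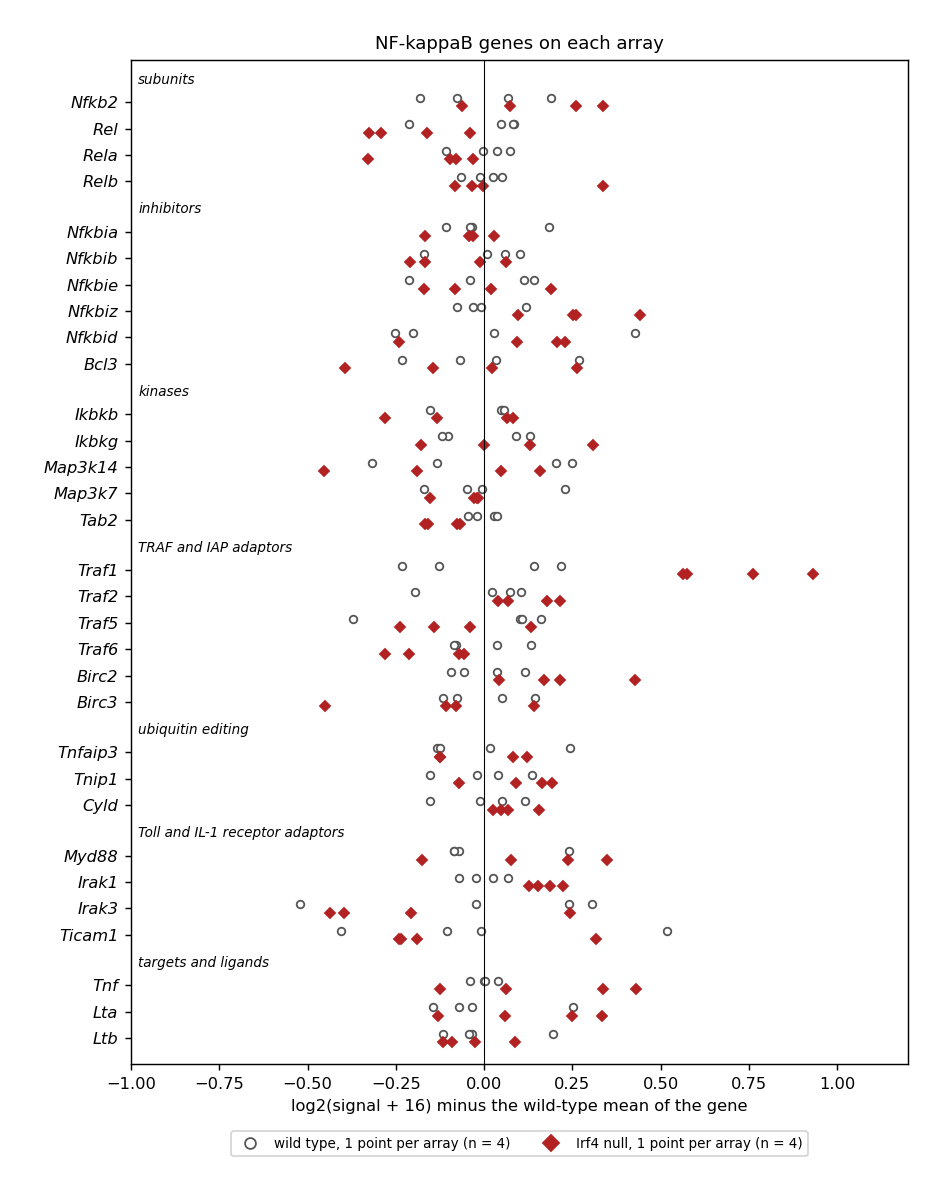
Each measured NF-kappaB gene on each of the 8 arrays, as log2(signal + 16) minus the wild-type mean of that gene; open circles are wild type and filled diamonds Irf4 null. The 4 Irf4 null values of Traf1 lie to the right of all wild-type values, and for 28 of the 31 genes the groups overlap.

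Over all single-gene probe sets, 69 of 71 passed the filter on dim signals, and 17 of the 31 genes had several that did. Called higher were 2 of the 69, both of Traf1, and none was called lower, against 2.01% higher, 1.51% lower and 3.52% either way of all probe sets tested. Of the 38 that were not the brightest for their gene, 13 had a fold change of the opposite sign to the brightest one and 4 separated the groups, 1 each for Traf1, Nfkbiz, Tab2 and Map3k7.

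Other genes of the pathway were read from 3 lists, with 2.67% of all tested genes higher, 1.7% lower and 4.37% either way as the background. The lists are short, their shares were not tested against it, and the part of other cells in them was not tested. Of 27 adaptor scaffolds and ubiquitin enzymes 23 were tested and 1 rose, with a median of -0.055, or -0.0049 with the Xist-high term. It was Ikbke, an IKK-related kinase of the interferon response, which read 157, 239, 177 and 176 in wild type, against 425, 453, 682 and 382 in Irf4 null (1.28 ± 0.19, limma, adjusted p = 0.0038). With the Xist-high term Ikbke still rose (1.12, adjusted p = 0.012).

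Of 19 receptors that signal to NF-kappaB 17 were tested, 3 rose, 1 fell and the median was 0.24, or 0.18 with the Xist-high term. Between the Xist-high and Xist-low arrays 6 of the 17 (35.3%) did not overlap, 5 of them lower on the Xist-high arrays. Of all tested genes 12.2% did not overlap between these arrays. Tlr3, the double-stranded RNA sensor that signals through TRIF, read 189 to 425 in wild type and 1675 to 2431 in Irf4 null (2.62 ± 0.21, limma, adjusted p = 8.2e-05). Tnfrsf19, a TNF receptor family member, read 333 to 617 in Irf4 null (2.74 ± 0.22, adjusted p = 8.4e-05), and its wild-type mean of 52.6 was close to the dim limit of 42.9, so the size of its rise is uncertain. Cd40, the receptor for T cell help, read 2330 to 2506 in wild type and 3012 to 3464 in Irf4 null (0.40 ± 0.072, adjusted p = 0.0132). The receptor that fell was the BAFF receptor gene Tnfrsf13c, with 7406 to 12140 and 5747 to 6999 (-0.69 ± 0.14, adjusted p = 0.0244), which was named after its values were seen. With the Xist-high term the 3 rises were called again and Tnfrsf13c was not (-0.50, limma, adjusted p = 0.0531). Of these, Cd40 and Tnfrsf13c encode receptors that can signal through the non-canonical route, though CD40 is not limited to it. The kinase gene Map3k14 and subunit genes Nfkb2 and Relb of that route did not pass. RNA levels do not show NIK stabilisation or p100 processing, so the activity of the route was not measured.

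Of 29 further NF-kappaB target genes 27 were tested, and the median was 0.11, or 0.015 with the Xist-high term. Called were 3 higher and 1 lower. Between the Xist-high and Xist-low arrays 5 of the 27 (18.5%) did not overlap, against 12.2% of all tested genes. Of these 5, 4 were lower on the Xist-high arrays. Ebi3, a subunit of IL-27 and IL-35, read 333, 444, 382 and 341 in wild type, against 833, 916, 833 and 768 in Irf4 null (1.13 ± 0.11, limma, adjusted p = 0.00042). The groups did not overlap. Il10, also among the 3, read 8.81 to 60.9 in wild type and 148 to 219 in Irf4 null. Its wild-type mean of 41.8 lies below the dim limit of 42.9, so it passed the filter only through the Irf4 null arrays, and its call supports nothing. Cxcl10, a chemokine induced by interferon, read 92.0 to 204 and 233 to 373 (1.19 ± 0.23, adjusted p = 0.0188). Bcl2, the survival gene, fell and was named after its values were seen (2505 to 3753 against 1590 to 2286, -0.67 ± 0.14, adjusted p = 0.0248). With the Xist-high term Ebi3 rose (1.05, adjusted p = 0.0012) and Cxcl10 and Bcl2 were not called (Cxcl10 0.96, adjusted p = 0.0617; Bcl2 -0.67, adjusted p = 0.0567).

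**Figure D5:**
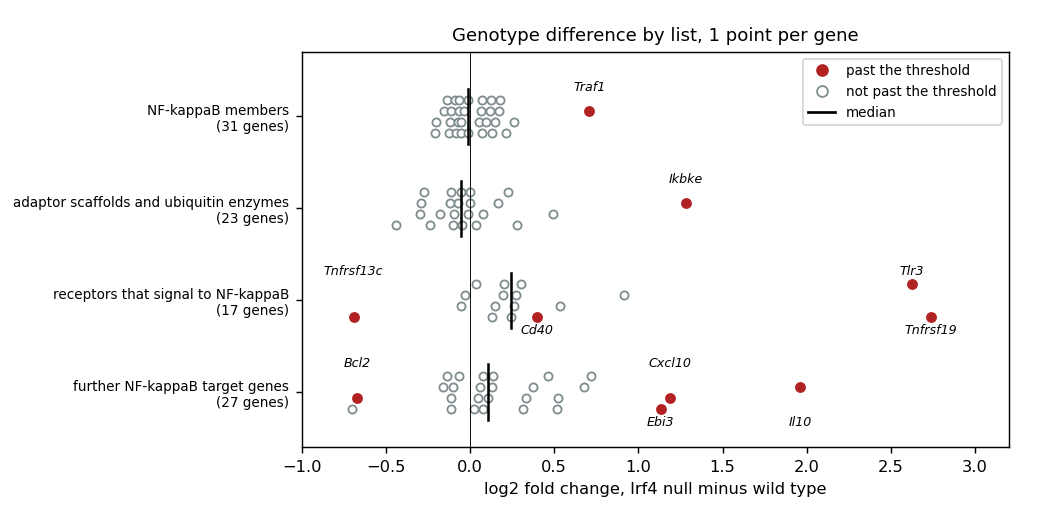
Log2 fold change (Irf4 null minus wild type) of each tested gene in the NF-kappaB set and in the 3 further lists, 1 point per gene, with called genes filled and named and the median as a black line. Called were 1 of 31 genes in the NF-kappaB set, 1 of 23 scaffolds, 4 of 17 receptors and 4 of 27 further targets (Il10 among them), against 4.37% of all tested genes, and the lists were not tested against each other.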

How the data were processed

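Each value is a linear intensity of a probe set that the authors computed using MAS5, as the submitters' processing notes name it, per the labels; its version and scaling target are not stated there. The trimmed mean of the deposited intensities (2% of probe sets left off at each end) was 500.003 on every array, so no further scaling was applied. The table has 45101 probe sets and no detection calls. Gene names came from the platform's annotation table, with symbols updated by gene identifier to the RefSeq table of GRCm38.p6 (34754 of 34958 single-gene probe sets matched); probe sets of several symbols entered the fit without a name.

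Signals were taken as log2(signal + 16), which shrinks the folds of dim genes, and the 64 control probe sets and the lowest 40% by mean log2 value (a signal up to 42.9) were dropped, which left 27022. The comparison of genotypes used limma 3.58.1 under R 4.3.3 (eBayes with a variance trend), adjusted by Benjamini-Hochberg over the 27022 at a threshold of 0.05. Arrays with a Xist signal over 1000 were called Xist-high. The number of arrays limits the precision.

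Values of every array are given for genes with an unadjusted p below 0.05 with or without the Xist-high term and for the 2 genes of each role with the smallest p. In the further lists up to 3 called genes are named. The genes, the lists, the Xist-high term and the rule for named genes were chosen with earlier results of these data known; the motifs were chosen after the values were seen. Figures were drawn with matplotlib 3.10.9.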

Additional observations from a re-analysis of the deposited data

Results flagged for a closer look

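In 7 of the 62 groups of 4 arrays (31 genes, 2 genotypes) 1 array stood far from the other 3 by Dixon's ratio, and chance flags about 1 group in 20. In wild type, Rel was low on array 1 (607 against 729 to 749), Ikbkb was low on array 2 (4844 against 5564 to 5602), Traf5 was low on array 2 (1590 against 2214 to 2307), and Myd88 was high on array 2 (1564 against 1244 to 1257). In Irf4 null, Relb was high on array 1 (1259 against 937 to 991), Map3k7 was low on array 2 (793 against 867 to 874), and Ticam1 was high on array 2 (391.6 against 261 to 271). Of these 7 arrays 5 were array 2 of their genotype, and both of those arrays are Xist-low, with other-cell marker sums of 104684 and 124864.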

How the results depend on the processing

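The number of NF-kappaB genes past the threshold was 1 in the main fit, and it stayed at 1, Traf1, in every alternative fit except those within the Xist-high and within the Xist-low arrays, where it was 0 (fewer arrays); leaving out each array in turn gave 1 to 1. At an adjusted p below 0.1 it was 1, and 3 genes had groups that did not overlap. None of the 30 other genes was called in any of the 21 alternatives, and 13 of the 31 kept their sign in all of them. The median of the set, -0.012, was -0.0745 with every array shifted to a common median, 0.069 when the Xist-high term was fitted and 0.063 on the Xist-high arrays alone. Over all probe sets, 950 were called in the main fit, 1746 with array weights, 555 without a variance trend, 322 within the Xist-high and 117 within the Xist-low arrays, and 466 to 2172 with 1 array left out: 2172 without wild-type array 2, 525, 561 and 533 without wild-type arrays 1, 3 and 4, and 504 and 466 without Irf4 null arrays 2 and 4. Deviations of same-numbered arrays correlated at 0.237, 0.277, -0.03 and -0.081 for numbers 1 to 4. The wild-type array was closest to the Irf4 null array of its own number for numbers 1 and 2 only. Those are also the numbers at which both genotypes share Xist status, so the check cannot settle whether arrays were paired. With the replicate number as a block 1168 probe sets and 1 NF-kappaB gene were called. No detection calls were used, so dim signals cannot be told from background.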

Other observations

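Among all tested genes, those with the interferon response element in the 250 bases before a start site held a larger share of calls than those without: 22 were called higher and 5 lower of 315 (8.57%), against 4.18% of 9274. With the composite ETS and IRF4 motif the share was 6.81% of 235, against 4.27% of 9354. These shares were not tested, and the motifs were chosen after values were seen. Of the 32 NF-kappaB genes with a window, Myd88 and Birc2 hold one of these motifs, at log2 fold changes of 0.12 and 0.21, neither called.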
